A study of Sus scrofa with 4 samples.

Results

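The genes described here are the receptor module through which R-spondins raise WNT signaling: the R-spondin receptors LGR4, LGR5 and LGR6, the R-spondins RSPO1 to RSPO4, and the E3 ubiquitin ligases RNF43 and ZNRF3. These 9 genes were chosen by name, and each has a row among the 29837 named genes counted in sorted pig skin cells. Of the 9, 6 passed the filter on low counts that left 15980 genes for testing. RSPO2 had 3 counts or fewer in every library, and RSPO3 and RSPO4 were too low for the filter. RNA was sequenced from 2 juvenile pigs, 88R and 95R, each giving 1 LGR5-high and 1 LGR5-negative library of epidermal cells, taken from the GFP-hi and GFP-neg sorts. Both populations carry the same modification, an H2B-GFP sequence placed in exon 1 of a single LGR5 allele, so that the LGR5 promoter drives the reporter, and the animals descend from a clonal edited cell line by nuclear transfer. The GFP-low cells that the study also sorted are not among these libraries, and the labels do not give the sex of the pigs. Hair and epidermis were peeled from the dermis after dispase, so that each population can hold follicle and interfollicular cells.

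Frizzled proteins and their LRP partners receive WNT ligands at the cell surface. RNF43 and ZNRF3 are membrane E3 ligases that mark frizzled receptors for removal and so hold the response down. An R-spondin binds an LGR receptor and a ligase at once, the ligase is cleared from the membrane, and more frizzled is left to receive WNT. LGR5 and LGR6 are known as markers of stem cells in the hair follicle, LGR4 is expressed more broadly, and the R-spondins of skin are known mostly from the dermal papilla and other dermal cells.

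The libraries held between 30696803 and 32463362 counts on named genes, and 3 counts in a library, the smallest signal read here, lay between 0.0873 and 0.105 CPM (read counts relative to the scaled size of the library). Marker lists, chosen with earlier results of these data known, describe the populations and are not a test of the sort. Of 7 follicle stem cell markers, 6 were higher in LGR5-high and 0 were lower (edgeR's quasi-likelihood test). CD34 is among those higher, though the paper's RT-qPCR did not find it significantly enriched in LGR5-H2BGFP cells. Of 6 suprabasal epidermal markers tested, 4 were lower and 0 were higher by the same test. Among all tested genes, 22.7% were higher and 22.0% were lower. KRT5, a keratin of basal epithelial cells, had between 789559 and 842315 counts in all 4 libraries. Of 5 basal markers tested, 2 were lower and 0 were higher. KRT15, listed here as basal, is also used as a follicle stem cell marker. It had an edgeR adjusted p-value of 0.187, and one of 2.13e-06 with the pig as a replicate block, where it was higher. KRT14, FLG and CD1A were not analysed here. The libraries are of whole populations, in which a larger share of cells expressing a gene and more RNA of that gene per cell cannot be told apart.

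Among the 8 genes other than LGR5, LGR4, LGR6, ZNRF3 and RSPO1 were higher in LGR5-high, which is 4 genes, and 0 were lower by edgeR's quasi-likelihood test, with calls made where the p-value adjusted over all tested genes (Benjamini-Hochberg) was under 0.05. Of all genes tested, 22.7% were higher and 22.0% were lower. RNF43 did not pass the threshold, and RSPO2, RSPO3 and RSPO4 were not tested. RSPO1 passed the filter only through the LGR5-high libraries, so that its row had to differ between the populations to be there at all. Among the members tested, 0 were lower at an unadjusted p-value under 0.05 in edgeR, and DESeq2 and limma-voom also called 0 lower, while 1 member, RSPO3, was lower in the fits that held it with all genes of at least 1 count or without LGR5-negative of pig 88R. The gene-by-gene test that the study's methods name, run here on log2 CPM, called none of the 4, with adjusted p-values of 0.0596 for LGR4, 0.133 for LGR6, 0.0680 for ZNRF3 and 0.299 for RSPO1. Separately, the paper reported LGR4 and LGR6 as enriched in LGR5-H2BGFP cells by RT-qPCR on sorted populations.

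**Figure D1:**
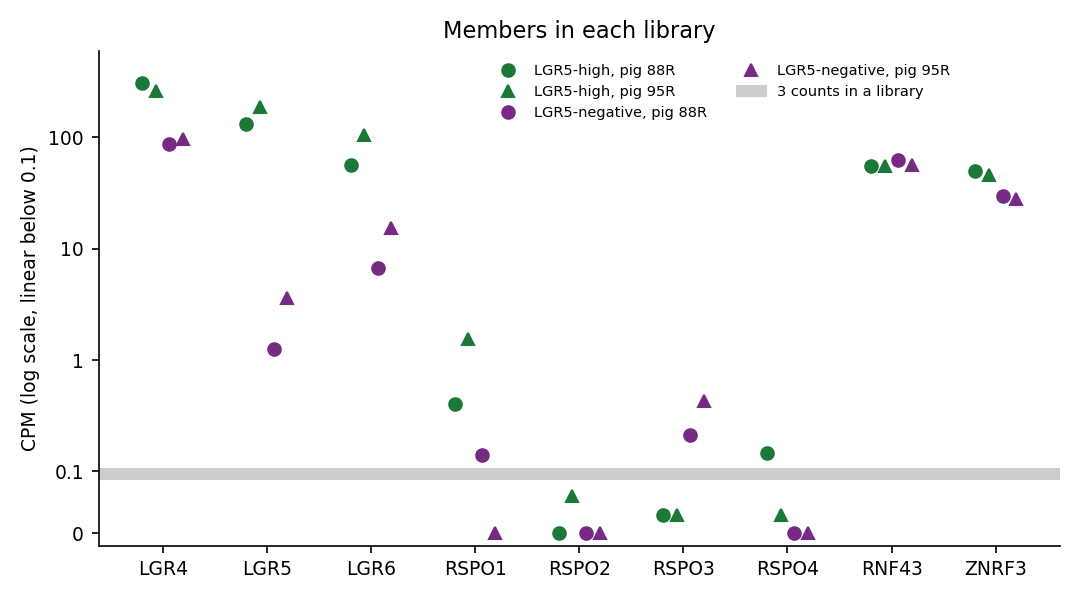
CPM of the 9 genes in each library on a log scale that turns linear below 0.1, with circles for pig 88R, triangles for pig 95R, green for LGR5-high, purple for LGR5-negative and a grey band at 3 counts. The 3 receptors are higher in both green symbols than in both purple ones, RNF43 lies between 55.0 and 63.1 CPM in all 4 libraries, and most of the R-spondin values lie near or below the grey band.

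The receptors come first. LGR5 is the gene whose reporter was sorted, so its level in these libraries describes the sort and was not used as a result. LGR5 counts were 4551 (pig 88R) and 6224 (pig 95R) in LGR5-high, and 36 and 109 in LGR5-negative. The populations were far apart, and the LGR5-negative libraries were not empty: the ratio of LGR5-high to LGR5-negative was 105-fold in pig 88R and 52.2-fold in pig 95R. Within each population pig 95R had more LGR5 than pig 88R, by 1.42 times in LGR5-high and by 2.86 times in LGR5-negative. By log2 fold change LGR5 stood at place 108 of the 15980 genes.

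LGR4, the broadly expressed receptor of the family, had 10632 and 8649 counts in LGR5-high and 2473 and 2906 counts in LGR5-negative, in the order 88R and 95R. That was 286 ± 33.6 CPM (SD, n = 2 pigs) against 91.5 ± 6.63 CPM (SD, n = 2). Both LGR5-high libraries lay above both LGR5-negative libraries, and the pigs were close to each other within each population. The log2 fold change of LGR4 was 1.64 (standard error 0.113, 95% interval 1.36 to 1.92, edgeR adjusted p = 0.000258). It was 3.56-fold higher in pig 88R and 2.72-fold higher in pig 95R. LGR4 was not lost from LGR5-negative cells, which had 86.8 CPM in pig 88R and 96.2 CPM in pig 95R.

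LGR6, which marks stem cells of the upper follicle in the mouse, had 1941 and 3456 counts in LGR5-high and 193 and 462 counts in LGR5-negative. On the CPM scale it had 80.5 ± 34.0 (SD, n = 2) and 11.0 ± 6.02 (SD, n = 2). The populations did not overlap, and the large SDs reflected a difference between the libraries of the 2 pigs. Pig 95R had 1.85 times the LGR6 of pig 88R in LGR5-high and 2.26 times in LGR5-negative. There were no repeat libraries of a pig and population, so a difference between the animals cannot be told apart from a difference between their preparations. The log2 fold change was 2.86 (standard error 0.455, 95% interval 1.74 to 3.99, edgeR adjusted p = 0.00457), with 8.34-fold in pig 88R and 6.84-fold in pig 95R. The folds thus lay closer to each other than the levels of the 2 pigs did. The follicle and basal keratin gene KRT15 also had about the same excess in pig 95R, with 38359 and 77482 counts in LGR5-high and 20376 and 40007 in LGR5-negative. Its part in the LGR6 values was not tested.

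**Figure D2:**
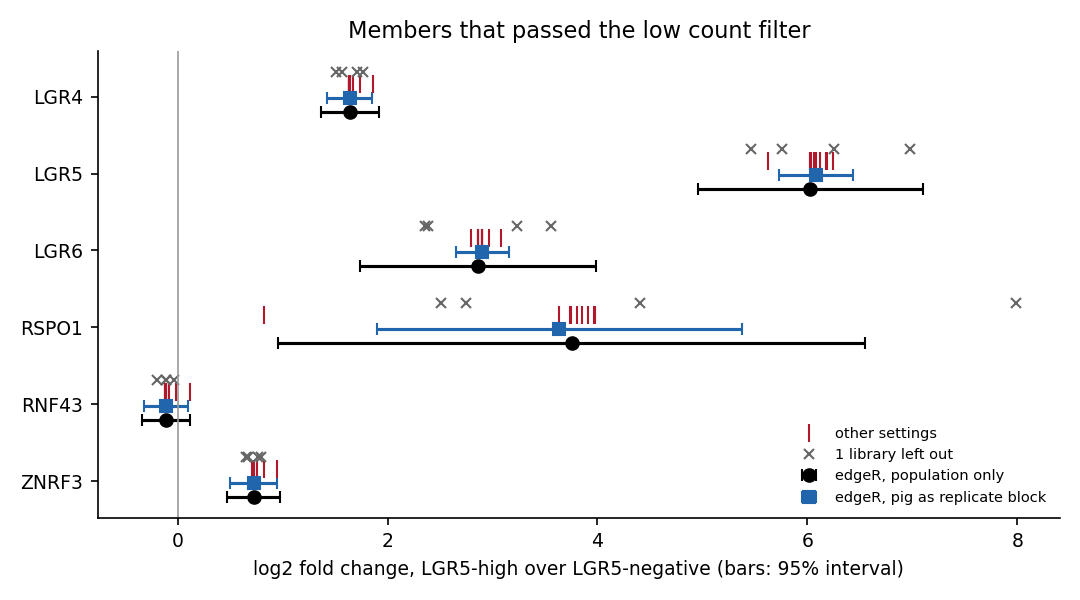
Log2 fold change of LGR5-high over LGR5-negative for the 6 genes that passed the filter, with 95% intervals from edgeR on the population only (black) and with the pig as a replicate block (blue), other settings as red ticks and fits without 1 library as grey crosses. LGR4 and ZNRF3 have narrow intervals above 0, the interval of LGR6 narrows with the block, RSPO1 spreads from 0.83 to 7.99 over the settings, and RNF43 straddles 0.

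The make-up of the receptor reads can be followed within a library, where no scaling between libraries is involved. These are shares of reads, without regard to transcript length, so they are compared between libraries and not between genes. LGR5 was left out of the total, since the sort fixed its level. Of the reads on LGR4 and LGR6, LGR6 took 15.4% (pig 88R) and 28.6% (pig 95R) in LGR5-high, and 7.24% and 13.7% in LGR5-negative. Both LGR5-high shares lay above both LGR5-negative shares, but the nearest pair was close, with 95% Wilson intervals of 14.8% to 16.1% for LGR5-high of pig 88R and 12.6% to 14.9% for LGR5-negative of pig 95R. Reads amplified by PCR share molecules, so the intervals describe counting error and nothing else.

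LGR4 and LGR6 changed unequally in both pigs. The ratio of LGR6 to LGR4 reads was 2.34 times as high in LGR5-high as in LGR5-negative in pig 88R, and 2.51 times in pig 95R. The ratio of LGR4 to ZNRF3, a receptor over a ligase, was 2.12 and 1.67 times as high. For 2 libraries against 2 the smallest two-sided p-value of an exact permutation test is 0.333, so such ratios were not tested.

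The ligases differed from each other as well. ZNRF3 had 1728 and 1514 counts in LGR5-high and 853 and 851 in LGR5-negative. On the CPM scale it had 48.0 ± 3.14 (SD, n = 2) and 29.0 ± 1.25 (SD, n = 2), and the spread between the pigs was small beside the gap between the populations. Its log2 fold change was 0.73 (standard error 0.102, 95% interval 0.47 to 0.98, edgeR adjusted p = 0.00291), with 1.68-fold in pig 88R and 1.63-fold in pig 95R. ZNRF3 is known as a target of the WNT pathway that it restrains, and so is RNF43.

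RNF43 had 1892 and 1841 counts in LGR5-high and 1797 and 1706 counts in LGR5-negative. It had 55.4 ± 0.489 CPM (SD, n = 2) and 59.8 ± 4.67 CPM (SD, n = 2). The log2 fold change was -0.11 (standard error 0.0937, edgeR adjusted p = 0.380), and the 95% interval of -0.34 to 0.12 leaves room for a small difference in either direction. With library size only in place of the trimmed mean of M-values (TMM) the log2 fold change of RNF43 was 0.11, while the median of all tested genes went from 0.02 to 0.24. The sign for RNF43 thus depended on the scaling.

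Within a library the pair can be compared without scaling. ZNRF3 held 47.7% and 45.1% of the reads on both ligases in LGR5-high (pigs 88R and 95R), and 32.2% and 33.3% in LGR5-negative. The lowest LGR5-high share, with a 95% Wilson interval of 43.4% to 46.8%, was above the highest LGR5-negative share, with 31.5% to 35.1%. The ratio of ZNRF3 to RNF43 was 1.92 times as high in LGR5-high in pig 88R and 1.65 times in pig 95R. The balance of reads between the ligases was thus shifted toward ZNRF3 in LGR5-high cells of both pigs, which shows unequal change and not which of the genes changed.

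**Figure D3:**
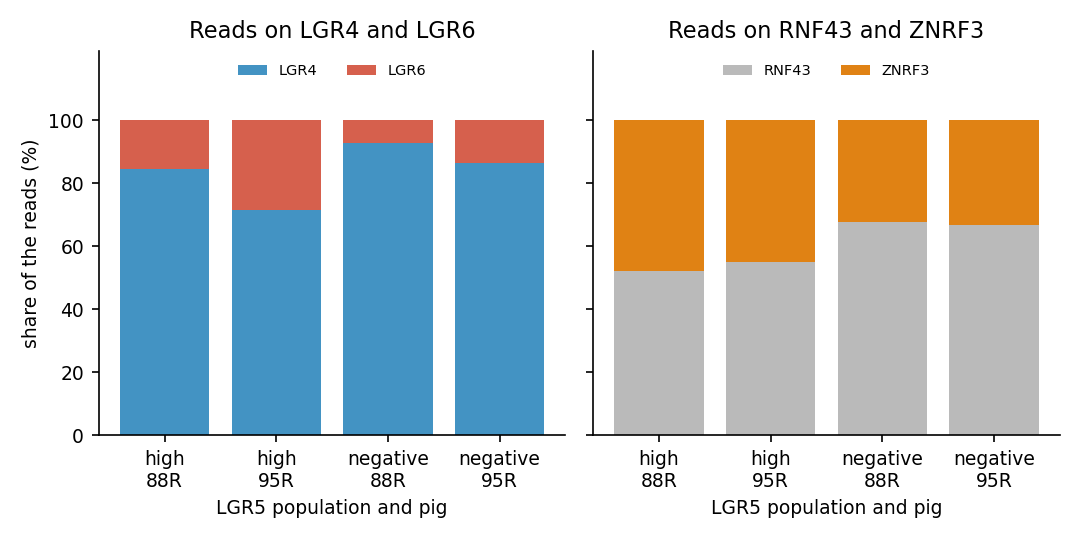
Stacked bars of the share of reads, in percent, on LGR4 and LGR6 (left) and on RNF43 and ZNRF3 (right) in each of the 4 libraries, by population and pig. LGR6 takes 15.4% and 28.6% of the left bars in LGR5-high and 7.24% and 13.7% in LGR5-negative, and ZNRF3 takes 45.1% or more of the right bars in LGR5-high and 33.3% or less in LGR5-negative.

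The R-spondins were near the limit of detection in sorted epidermal cells. RSPO1 was counted 14 times in pig 88R and 51 times in pig 95R in LGR5-high, and 4 times and 0 times in LGR5-negative. Both LGR5-high values lay above both LGR5-negative values, and the LGR5-high libraries differed 3.79 times between the pigs. Over both pigs the ratio of LGR5-high to LGR5-negative counts was 14.2, with a 95% counting interval from 5.27 to 53.5. The log2 fold change of RSPO1 was 3.75 (standard error 1.13, 95% interval 0.96 to 6.55, edgeR adjusted p = 0.0405). RSPO1 passed the low count filter only through the LGR5-high libraries, so this test is no independent support for a difference. The call rested on pig 95R: without its LGR5-high library the log2 fold change was 2.51 (adjusted p = 0.224), and without its LGR5-negative library it was 2.75 (adjusted p = 0.0904). Without the LGR5-negative library of pig 88R the estimate was 7.99, against a lone library at 0 counts where it depends on the prior count.

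RSPO3, an R-spondin of dermal cells and vessels, went the other way, with 1 and 1 counts in LGR5-high and 6 and 13 counts in LGR5-negative. LGR5-negative had 10.9 times as many counts after scaling, with a 95% counting interval from 2.63 to 96.6 that compares these libraries only. The LGR5-high counts lie below the 3 counts taken as the smallest signal, so the size of this ratio is uncertain. It did not pass the low count filter. With all genes that had at least 1 count in the test, the log2 fold change of RSPO3 was -3.28 (standard error 0.938, edgeR adjusted p = 0.0350). The fits that leave out a library held RSPO3 only where LGR5-negative of pig 95R was kept, since its 13 counts alone passed the filter. The log2 fold change of RSPO3 was -3.70 without LGR5-negative of pig 88R, and -3.25 and -3.29 without LGR5-high of pig 88R and of pig 95R. RSPO3 had to be high in LGR5-negative to enter these fits, so they are no separate support. RSPO4, known from nail development, had 5 and 1 counts in LGR5-high and 0 in both LGR5-negative libraries, and RSPO2 had 0 and 2 counts in LGR5-high and 0 in LGR5-negative. A difference in RSPO2 or RSPO4 was not detectable at this depth, with adjusted p-values of 0.474 and 0.199 when all genes with at least 1 count were tested with edgeR.

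Markers of dermal, vascular and other cell types did not move one way between the populations. Beside their counts stand the 22.7% higher and 22.0% lower of all tested genes. The summed level of 5 endothelial markers was 6.11 and 7.48 CPM in LGR5-high and 20.8 and 20.9 CPM in LGR5-negative, and 4 of the 5 were lower in LGR5-high. Of 10 markers of dermal fibroblasts and dermal papilla, 9 were tested. COL1A1 and COL1A2 were higher in LGR5-high, and COL3A1, DCN, LUM, PDGFRA and VIM were lower. The summed level of these 10 was 735 and 1015 CPM in LGR5-high and 447 and 308 CPM in LGR5-negative. SOX2, a marker of the dermal papilla, had 3 and 5 counts in LGR5-high and 0 in LGR5-negative. All 4 tested markers of smooth muscle and pericytes were higher in LGR5-high, with a summed level of 401 and 289 CPM against 15.5 and 14.9 CPM, of which TAGLN alone gave 389 and 277 CPM against 11.4 and 9.99 CPM, and DES was at 3 counts or fewer in every library. Of 7 melanocyte markers 5 were lower in LGR5-high, and their sum was 62.5 and 62.6 CPM against 85.0 and 261 CPM. Of the Langerhans and other immune markers, 4 of 5 tested were lower and AIF1 was higher, and CD3E was at 3 counts or fewer in every library. The summed nerve and Schwann markers were 59.0 and 79.1 CPM against 5.47 and 10.8 CPM, and the summed sebaceous markers were 1053 and 953 CPM against 1024 and 967 CPM. FASN made up most of the sebaceous sum, and SCD, the other lipid synthesis gene tested, was higher in LGR5-high at a log2 fold change of 1.08. The part of such cells in the R-spondin counts was not tested.

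The receptors that the module acts on were split. The list genes named here with a log2 fold change passed the threshold unless stated otherwise, with adjusted p-values from 3.80e-05 to 0.0226 in edgeR. In the WNT receptor complex (frizzleds, LRP5, LRP6, dishevelled and casein kinase genes), 16 genes were tested, 7 of them higher in LGR5-high and 5 lower. Of all tested genes, 22.7% were higher and 22.0% lower. The median log2 fold change of the list was 0.19 beside 0.02 for all tested genes. FZD1, FZD7 and FZD3 had the largest increases, with log2 fold changes of 3.65 (standard error 0.0856), 3.51 (standard error 0.167) and 3.14 (standard error 0.111). FZD7 went from 1547 and 2195 counts in LGR5-negative to 26338 and 22394 counts in LGR5-high. FZD9, FZD4 and FZD10 had the largest decreases, with -1.91 (standard error 0.377), -1.44 (standard error 0.177) and -1.07 (standard error 0.0817). FZD2 and FZD8, named after their values were seen, were also higher, with 3.08 (standard error 0.247) and 2.63 (standard error 0.0965). Frizzled genes thus stood on both sides of the comparison, and the largest increases were larger than the largest decreases.

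Among genes reported as partners of R-spondins and LGR receptors (syndecans and glypicans, which carry heparan sulfate, and other membrane proteins), 15 of 17 were tested, with 7 higher, 3 lower and a median of 0.43. The shares over all tested genes were 22.7% higher and 22.0% lower. SDC2 rose from 156 and 180 counts to 3855 and 3174 counts, for a log2 fold change of 4.19 with a standard error of 0.129, and GPC6 had one of 3.70 (standard error 0.242). GPC5 had 35 and 13 counts in LGR5-high and 0 counts in both LGR5-negative libraries, which is at least 6.90-fold higher against a floor of 3 counts per library. GPR37, GPC3 and SDC4 fell, with log2 fold changes of -1.19, -1.07 and -0.82, and the call of GPC3 was lost without LGR5-high of pig 88R (-0.91, edgeR adjusted p = 0.0626). TNFRSF19, also called TROY and known from LGR5 stem cells of the gut, had -0.46 (edgeR adjusted p = 0.0934). It was called lower with the pig as a replicate block (-0.47, edgeR adjusted p = 0.000263), without LGR5-high of pig 88R (-0.71) and without LGR5-negative of pig 95R (-0.65). IQGAP1, likewise singled out, did not pass (0.24, edgeR adjusted p = 0.0758), and was called higher with the block (edgeR adjusted p = 0.0317) and with library size only (0.47). TNFRSF19 was singled out after its values were seen. TNFSF11, a ligand reported for LGR4, had 0 counts in every library.

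Genes that the WNT pathway is known to switch on also went both ways. Of 20 tested, 9 stood higher in LGR5-high and 6 lower, with a median of 0.43, beside 22.7% higher and 22.0% lower among all tested genes. WIF1 and DKK4, which encode secreted WNT inhibitors, had log2 fold changes of 5.45 (standard error 0.485) and 3.79 (standard error 0.544), and the follicle transcription factor SOX9 one of 4.41 (standard error 0.169). WIF1, with 2 and 7 counts in LGR5-negative, and DKK4, with 4 and 4, passed the low count filter only through the LGR5-high libraries, as RSPO1 and GPC5 did. The other 6 genes called higher were TCF7, EPHB2, NOTUM, NKD2, LEF1 and APCDD1, named after their values were seen, with log2 fold changes from 0.45 for APCDD1 to 2.78 for TCF7. LEF1 and APCDD1 lost their calls without LGR5-high of pig 88R, APCDD1 also without LGR5-negative of pig 88R. ASCL2, MYC and CCND1 fell, with -2.40 (standard error 0.261), -1.80 (standard error 0.125) and -0.73 (standard error 0.0896), and MYC, a regulator of cell growth, had 9190 and 10046 counts in LGR5-high against 25694 and 32699 in LGR5-negative. AXIN2, the most widely used WNT target gene and chosen here after its values were seen, had 892 and 914 counts in LGR5-high and 1053 and 1040 in LGR5-negative. Its log2 fold change was -0.41 (standard error 0.104, edgeR adjusted p = 0.0226), and it lost its call with library size only, at -0.19 (edgeR adjusted p = 0.178), and without LGR5-high of either pig or LGR5-negative of pig 88R, at -0.38, -0.45 and -0.37. KREMEN1 and CD44, also named after their values were seen, were the remaining genes called lower, with -0.62 (standard error 0.0849) and -0.37 (standard error 0.0806). CD44 lost its call with library size only, at -0.15 (edgeR adjusted p = 0.173), and without LGR5-high of pig 95R, at -0.32.

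**Figure D4:**
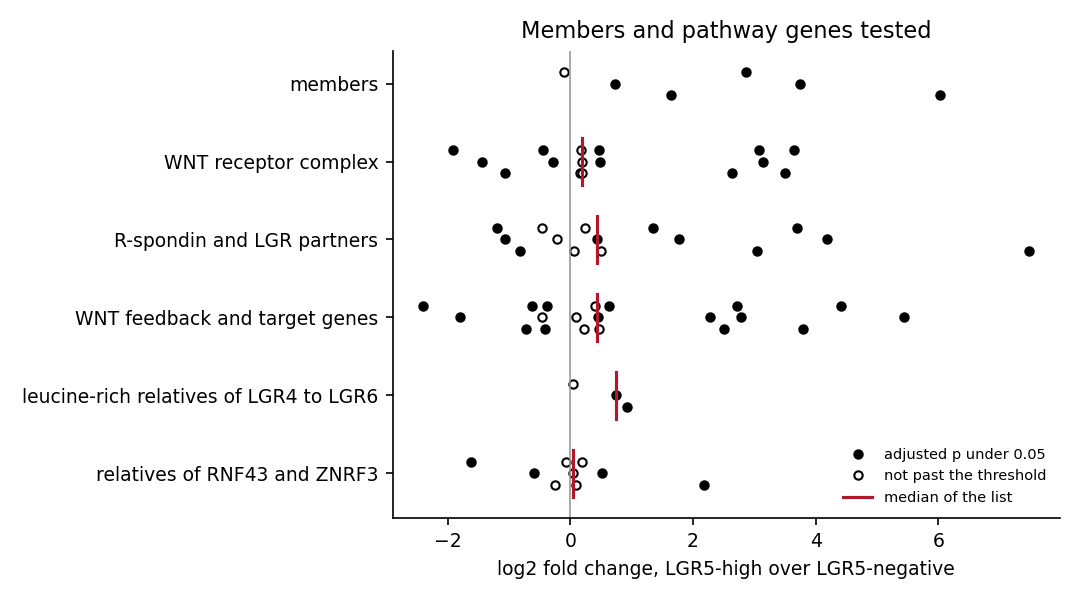
Log2 fold change of LGR5-high over LGR5-negative for the members and for each gene tested in the 5 pathway and family lists, filled where the adjusted p-value was under 0.05, with a red line at the median of each list. Each of the 3 pathway lists holds filled points on both sides of 0, and the point of GPC5 at 7.49 is an estimate against 0 counts.

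Of the leucine-rich relatives, the glycoprotein hormone and relaxin receptors FSHR, TSHR, RXFP1 and RXFP2 were at 3 counts or fewer in every library. LHCGR had 4 and 7 counts in LGR5-high and 0 in LGR5-negative, and was not tested. Of 3 relatives tested, 2 were higher and 0 lower, beside 22.7% and 22.0% of all tested genes. LRIG1, which restrains growth factor receptors and marks stem cells of the upper follicle in the mouse, stood at 0.92 on the log2 scale (standard error 0.140), and LRIG3 at 0.75 (standard error 0.187). LRIG2 did not pass (0.04, edgeR adjusted p = 0.810). LHCGR and LRIG2 were named after their values were seen. The call of LRIG3 was lost without the LGR5-high library of either pig, at adjusted p-values of 0.0578 and 0.0914. Of 9 tested relatives of the ligases, 2 were higher, RNF150 with 2.18 (standard error 0.485) and ZNRF2 with 0.52 (standard error 0.105), and 2 were lower, RNF128 with -1.63 (standard error 0.213) and RNF149 with -0.60 (standard error 0.0859). Among all tested genes 22.7% were higher and 22.0% lower, which is near the share of these relatives. Without LGR5-high of pig 88R the calls of RNF150 and ZNRF2 were lost, at 1.75 (edgeR adjusted p = 0.0971) and 0.42 (edgeR adjusted p = 0.0631).

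For the tested genes other than RNF43, the 3 genes with the most similar pattern were found by the root mean square distance of centred log2 CPM over the 4 libraries, which are of only 2 pigs, so these are descriptions. LGR5 was nearest to GREM1, PLCE1 and CPXM2, at distances of 0.179, 0.230 and 0.275 on the log2 scale. LGR4 was nearest to C1RL, INSRR and PAICS, at 0.0237, 0.0391 and 0.0395. LGR6 was nearest to CADM2 among the genes with a symbol, at 0.0847, and next to ADAMTSL2, at 0.116, after the unnamed locus LOC110261504, at 0.0812. ZNRF3 was nearest to ORMDL3, CBX8 and PTPMT1, at 0.0215, 0.0233 and 0.0283. RSPO1 had its nearest genes, LOC110256027, LOC100624806 and LOC110260565, at 0.239, 0.257 and 0.333. Several of these genes had few counts. C1RL had 22 and 18 counts in LGR5-high and 4 and 5 in LGR5-negative. CADM2 had 23 and 48 against 1 and 4, and GREM1 had 1 and 4 in LGR5-negative. A prior count of 2 shrinks the log2 ratios of such genes. By edgeR the log2 fold change was 1.93 for C1RL beside 1.64 for LGR4, and 6.93 for GREM1 beside 6.03 for LGR5. Small distances to such genes are therefore uncertain. Since the nearest genes were picked from all tested genes, it was largely set in advance that they lie nearer than other members. Within the module, the closest pair was RNF43 and ZNRF3, 0.420 apart with 10010 genes nearer to RNF43. LGR4 and ZNRF3 were 0.466 apart with 1848 genes nearer to LGR4, and LGR5 and LGR6 were 1.64 apart with 564 genes nearer to LGR5.

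The genes next to each member in the RefSeq annotation of Sscrofa11.1 were read as well. Of 18 such neighbours, 14 were tested, with 3 higher and 3 lower in LGR5-high, shares near the 22.7% and 22.0% of all tested genes. Next to LGR5, which carries the reporter, ZFC3H1 stood at 0.27 on the log2 scale (standard error 0.0847, edgeR adjusted p = 0.0441), and LOC100155659 had 2 and 6 counts in LGR5-high and 0 in LGR5-negative. Both neighbours of LGR6 were higher, UBE2T with 1.11 (standard error 0.204) and LOC100624894 with 4.73 (standard error 0.220), the latter with 1386 and 1144 counts in LGR5-high and 32 and 51 in LGR5-negative. The strand setting of the counting is not given in the sources used here, and sharing of reads between neighbours was not tested. XBP1, next to ZNRF3, and SUPT4H1, next to RNF43, were lower in LGR5-high, with -0.92 (standard error 0.0850) and -0.63 (standard error 0.111).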

How the data were processed

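The deposited values are raw read counts by gene symbol, made by the authors from paired-end reads of 4 poly(A) libraries. The submitters' processing notes name Trimmomatic 0.36, STAR 2.5.2b and featureCounts from Subread 1.5.2. The genome build, annotation and strand setting are not given in the sources used here, so no coordinates are reported, and levels of different genes were not compared because transcript lengths were not used here. All 29837 named genes matched a RefSeq symbol. The 1 entry without a name, with between 0.360% and 0.626% of the counts of a library, was left out.

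The comparison was run with edgeR 4.0.16 under R 4.3.3: filterByExpr (minimum count 10, minimum total 15), TMM scaling, and a two-sided quasi-likelihood test of the population, the single term of the model. P-values were adjusted by Benjamini-Hochberg over all 15980 genes tested, and genes under 0.05 were called higher or lower. CPM is given as mean ± SD over 2 pigs. Counting intervals are exact binomial and shares of reads have Wilson intervals, both at 95%. The pig was used as a replicate block in an alternative, because the labels show that each pig gave both populations. Libraries of one pig deviated together, with a correlation of 0.370 across genes. Other alternatives were other scalings and filters, DESeq2 1.42.0, voom of limma 3.58.1, the Student's test that the study names, here on log2 CPM with a pseudocount of 1, and leaving out each library. Scripts were tested on simulated data. Plots used matplotlib 3.10.9.

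The members, lists and tests were chosen with earlier results of these data known. The genes named are all members, up to 3 called genes with the largest change in each direction from each pathway or family list, the 3 genes nearest to each tested member (those of RNF43 are not reported here), and the marker genes, apart from those stated to be chosen after their values were seen. The neighbours in the annotation and the within-library shares were also added after the values were seen.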

Additional observations from a re-analysis of the deposited data

How the results depend on the processing

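Of the 6 genes tested, LGR4, LGR6 and ZNRF3 kept their direction and their call under every scaling, filter, tool and left-out library, except that the Student's test on log2 CPM called 0 members, with adjusted p-values of 0.0596, 0.133 and 0.0680, and 0.299 for RSPO1. With the pig as a replicate block, LGR6 had a log2 fold change of 2.90 with a standard error of 0.119 in place of 0.455, and the block changed no call of a member. RNF43 reversed with library size only, at 0.11. RSPO1 was not in the test with at least 10 counts in every library. With all genes that had at least 1 count, 1 member, RSPO3, was called lower. With the Student's test, higher genes numbered 4 among the partners, 2 among the WNT targets, 0 among each set of relatives and 544 among all genes, and lower genes numbered 1 in the WNT receptor complex, 0 among the partners, the WNT targets and the ligase relatives, and 502 among all genes. With library size only, 5 ligase relatives and 5473 of all genes were higher, and 3 genes of the WNT receptor complex and 2326 of all genes were lower, against 3632 and 3508 with TMM. With at least 10 counts in every library, 1 ligase relative was higher. The cause was not tested, apart from the smaller or larger set of genes tested. Leaving out each library in turn gave between 0 and 1 lower members (RSPO3, without the LGR5-negative library of pig 88R), 1 to 2 higher leucine-rich relatives, 0 to 2 higher ligase relatives (0 without the LGR5-high library of pig 88R), 3 to 4 lower genes of the WNT receptor complex (3 without the LGR5-high library of pig 95R), 2279 to 3169 higher and 2139 to 3004 lower genes in all. Depth limits RSPO2, RSPO3 and RSPO4, which had at most 2, 13 and 5 counts in a library. RSPO3 entered the fits without 1 library only through the 13 counts in LGR5-negative of pig 95R. The 4 libraries are of 2 pigs, and p-values measure the spread between these.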
